A study of Mus musculus with 4 samples.

Results

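Genes of the intestine, stomach and pancreas were followed in the newborn mouse ureter. The set held 37 genes, chosen by name as digestive enzymes, gut absorptive genes, gut and islet hormones and trefoil factors, and every probe set annotated to exactly 1 of these symbols was taken. In all, 35 of the 37 genes had such a probe set, with 45 probe sets between them, out of 18193 genes and 45037 probe sets on the arrays. Pnlip and Sis were not analysed here. The ureter is a tube of urothelium, connective tissue and smooth muscle that leads urine to the bladder.

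The 3 ureter arrays came from whole ureters, dissected free of kidney and bladder, of male FVB/N mice at postnatal day 1 (Theiler stage 27) that were transgenic for SMGA/EGFP, SMGA being Actg2, the gamma-actin of smooth muscle. The single reference array came from a pool of whole FVB/N mice of the same age, both sexes, without the transgene. Tissue, sex, transgene and pooling therefore cannot be told apart, and nothing says that the 3 ureters came from separate animals, so p-values reflect the spread among these 3 arrays alone, and that spread may be technical. The reference array was assumed to vary like the ureters. In both groups the RNA was amplified in 2 rounds before labelling.

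As background, pancreatic acinar cells secrete lipases, proteases and nucleases into the gut, islet cells release peptide hormones into the blood, and enterocytes carry hydrolases and fatty acid carriers at and below their brush border. Goblet cells add mucins and trefoil peptides, and the stomach lining adds pepsinogen, acid pumps and gastrin. The transcription factor complex PTF1 drives acinar genes, while the CDX factors drive many intestinal ones.

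All values below are quantile-normalized intensities unless called a log2 difference, which is ureters minus reference, given with its standard error (SE) from limma. The median log2 difference of all tested probe sets was 0.11. An array's background was set at the brightest of 27 probe sets for bacterial control transcripts. It was 94.2, 188 and 134 in ureter replicates 1, 2 and 3 and 127 in the reference. Where all 3 ureters lay at or below it, the ureter level is a bound and the fold is given as "at least". Where only some did, the fold also uses values below background. Levels of different probe sets were not compared with one another. In bulk tissue, fewer cells of a type and less RNA per cell cannot be told apart. Depth does not apply to arrays, and precision is limited by their number.

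Markers of the labelled tissue were present. All 10 urothelial genes and all 8 smooth muscle genes looked at were above background in every ureter, as were 49.2% of all probe sets. The summed intensities of the urothelial genes ranged over 124007 to 213210 in the ureters against 31505.5 in the reference, and those of the smooth muscle genes over 151786 to 176326 against 65066. Upk1b, a uroplakin of the urothelial surface, was at 58522, 37353 and 43476 in the ureters against 898 in the reference. Across the arrays 2.94% of tested genes were called higher and 4.77% lower. Of the 10 urothelial genes 7 were called higher and 0 lower, and of the 8 smooth muscle genes 6 and 0. Krt5, a basal cell keratin, ran the other way without passing (4703, 2612 and 4123 in the ureters against 12418 in the reference, adjusted p = 0.0635), as did Des, the muscle filament desmin (1084, 1107 and 1053 in the ureters against 2780 in the reference, adjusted p = 0.0900).

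Most of the digestive genes were near or below background in the ureters and bright in the whole newborn. Of the 35 genes, 11, 4 and 12 were above background in ureter replicates 1, 2 and 3, against 30 in the reference. In 19 genes no ureter exceeded background, in 8 genes 1 did, in 5 genes 2 did, and 3 genes, Tff1, Muc2 and Mep1a, were detected in all 3. Among all probe sets 66.7%, 53.8% and 60.2% were above background in ureter replicates 1, 2 and 3 and 61.2% in the reference. The shares were 71.9% in at least 1 ureter and 49.2% in all 3 ureters. All 3 ureters lay below the reference at 41 of the 45 member probe sets, whereas 26.5% of all probe sets showed that order and 36.3% the opposite one.

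Tested against the reference, 18 member genes were lower in the ureters, 0 were higher, 10 did not pass and 7 were too dim to be tested (limma, adjusted p). At an unadjusted p under 0.05 the counts were 23 lower and 0 higher. No share of all tested genes is given at an unadjusted p, here or below. Counts at an unadjusted p therefore cannot be set against the arrays as a whole, and nothing is concluded from them. At the adjusted p, 4.77% of tested genes across the arrays were called lower and 2.94% higher. By probe set, 32 of 45 were tested, 21 were lower and 0 higher, against 3.49% lower and 2.68% higher (6.17% in all) of the tested probe sets of the arrays. The dim filter works on both groups together, so a gene that is dim in the ureter could be tested only if it was bright in the reference. Without that filter, all 45 member probe sets were tested, 18 were lower and 0 higher, against 1.5% of all probe sets called lower. The median log2 difference of the 45 was then -3.57, beside 0.13 over all probe sets. When ureter replicate 3 was left out, 12 of the 18 genes were still called. Cpb1, Ctrb1, Ctrl, Rnase1, Cdx2 and Muc2 lost their calls, with adjusted p between 0.0651 for Cpb1 and 0.0862 for Cdx2.

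**Figure D1:**
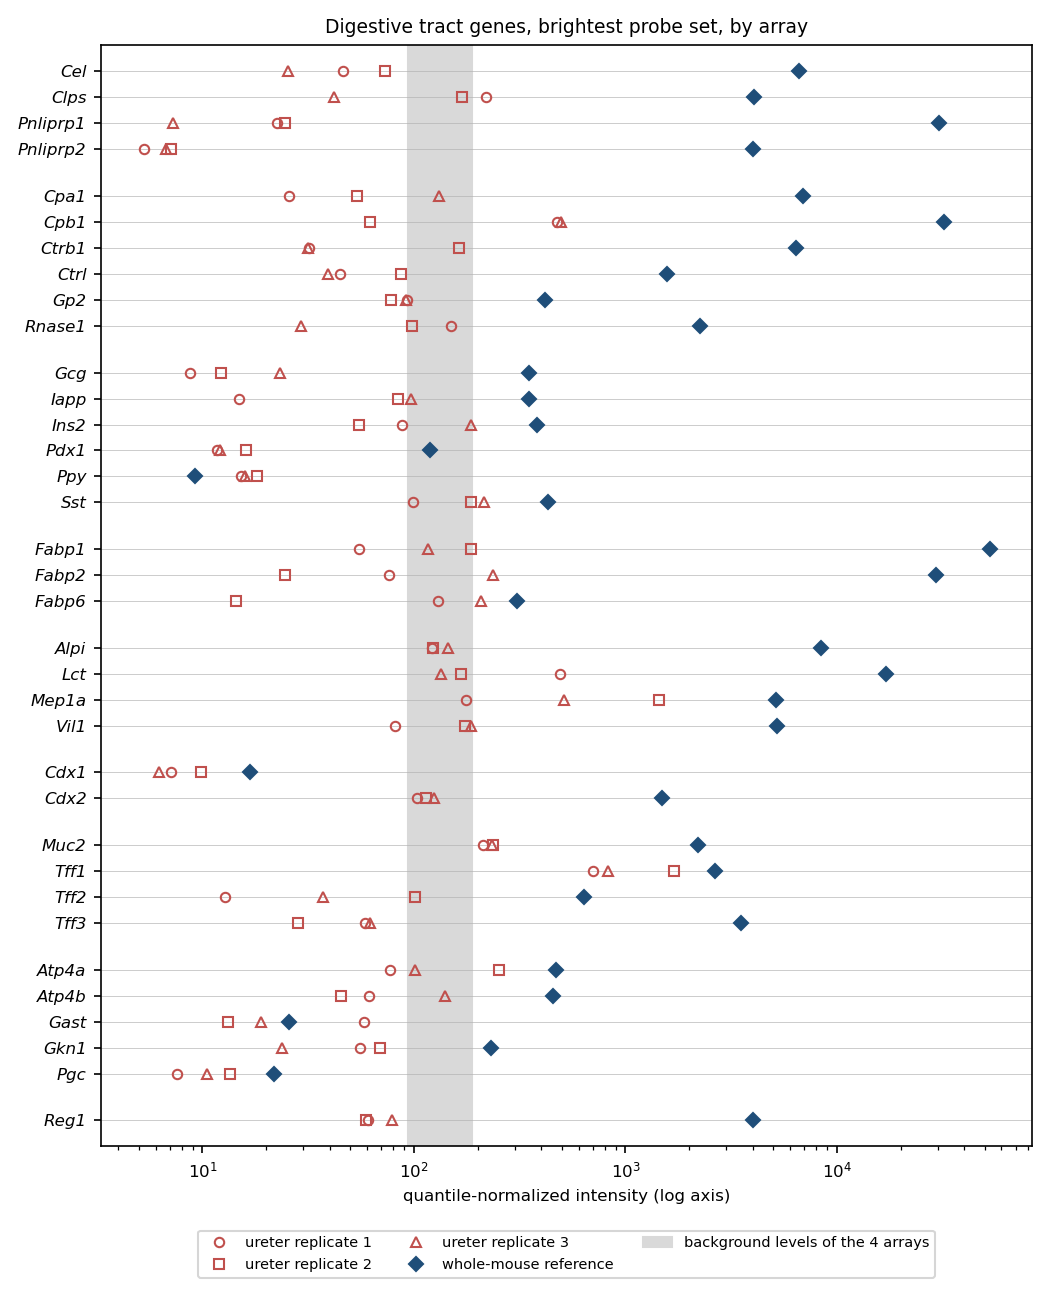
Quantile-normalized intensity (log axis) of each measured member gene at its brightest probe set, in the 3 ureters (open symbols) and the whole-mouse reference (diamonds); the grey band spans the background levels of the 4 arrays, 94.2 to 188. Most ureter symbols lie in or left of the band while 30 of 35 diamonds lie right of it; all ureter symbols of Tff1 lie right of it, at 706 to 1698.

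Pancreatic lipase genes were lower in the ureters, 4 of 4 measured. Pnliprp1, a lipase-related protein of the acinar cell, had 22.6, 24.7 and 7.26 in the ureters against 30475 in the reference. All 3 ureters were under background, so the transcript was at least 209-fold lower (adjusted p = 0.00503). Cel, the bile salt-activated lipase that also splits cholesterol esters, had 46.2, 73.0 and 25.5 in the ureters against 6643 in the reference, at least 45.6-fold lower (adjusted p = 0.00975). Pnliprp2, which also digests galactolipids, had 5.26, 7.10 and 6.73 in the ureters against 4008 in the reference, at least 27.5-fold lower (adjusted p = 0.0144). With an offset of 1 in place of 12.23, Pnliprp2 missed the threshold (adjusted p = 0.0531). No ureter value of these 3 genes came near the reference.

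Clps encodes colipase, the cofactor that anchors pancreatic lipase to fat droplets. Its brighter probe set had 218, 169 and 41.8 in the ureters against 4041 in the reference, a log2 difference of -4.95 ± 0.89 (adjusted p = 0.0319), with ureter replicate 1 alone above background. The second probe set had 32.3, 54.4 and 3.89 in the ureters against 5016 in the reference, at least 34.4-fold lower (adjusted p = 0.0186). Both probe sets were thus lower, and replicate 3 was the lowest ureter at each. The call at the brighter one was lost without the dim filter (adjusted p = 0.0637) and without an intensity trend (adjusted p = 0.0681). In the RefSeq gene order Pnlip, Pnliprp1 and Pnliprp2 stand side by side on chromosome 19.

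Pancreatic proteases and the pancreatic ribonuclease were lower too, 5 of 6 genes in their group. Cpa1 and Cpb1 encode carboxypeptidases, Ctrb1 and Ctrl chymotrypsin-type proteases. Cpa1 had 25.8, 54.0 and 131 in the ureters against 6899 in the reference, at least 47.3-fold lower (adjusted p = 0.0152). Ctrb1 had 31.8, 164 and 31.7 in the ureters against 6421 in the reference, at least 44.1-fold lower (adjusted p = 0.0199). Ctrl had 44.8, 86.4 and 39.1 in the ureters against 1567 in the reference, at least 10.8-fold lower (adjusted p = 0.0253). All their ureter values were under background.

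Cpb1 differed among the ureters. It had 476, 62.1 and 494 in ureter replicates 1, 2 and 3 against 32206 in the reference, so replicates 1 and 3 were above background and replicate 2 was under it. The log2 difference was -6.93 ± 1.11 (adjusted p = 0.0247), and without an intensity trend the adjusted p was 0.0652. Rnase1, the secreted pancreatic ribonuclease that endothelial cells also make, had 150, 98.1 and 29.4 in the ureters against 2242 in the reference (-4.64 ± 0.88, adjusted p = 0.0374). Its adjusted p was 0.0529 with an offset of 1, 0.0710 without the dim filter and 0.0654 without a trend. Gp2, the main glycoprotein of zymogen granule membranes, had 92.6, 78.2 and 92.1 in the ureters against 414 in the reference and did not pass (adjusted p = 0.133), although no ureter was above background.

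The regenerating protein gene Reg1, a secretory product of acinar cells, had 60.4, 59.5 and 78.4 in the ureters against 3999 in the reference. No ureter exceeded background, and the transcript was at least 27.5-fold lower (adjusted p = 0.00970).

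**Figure D2:**
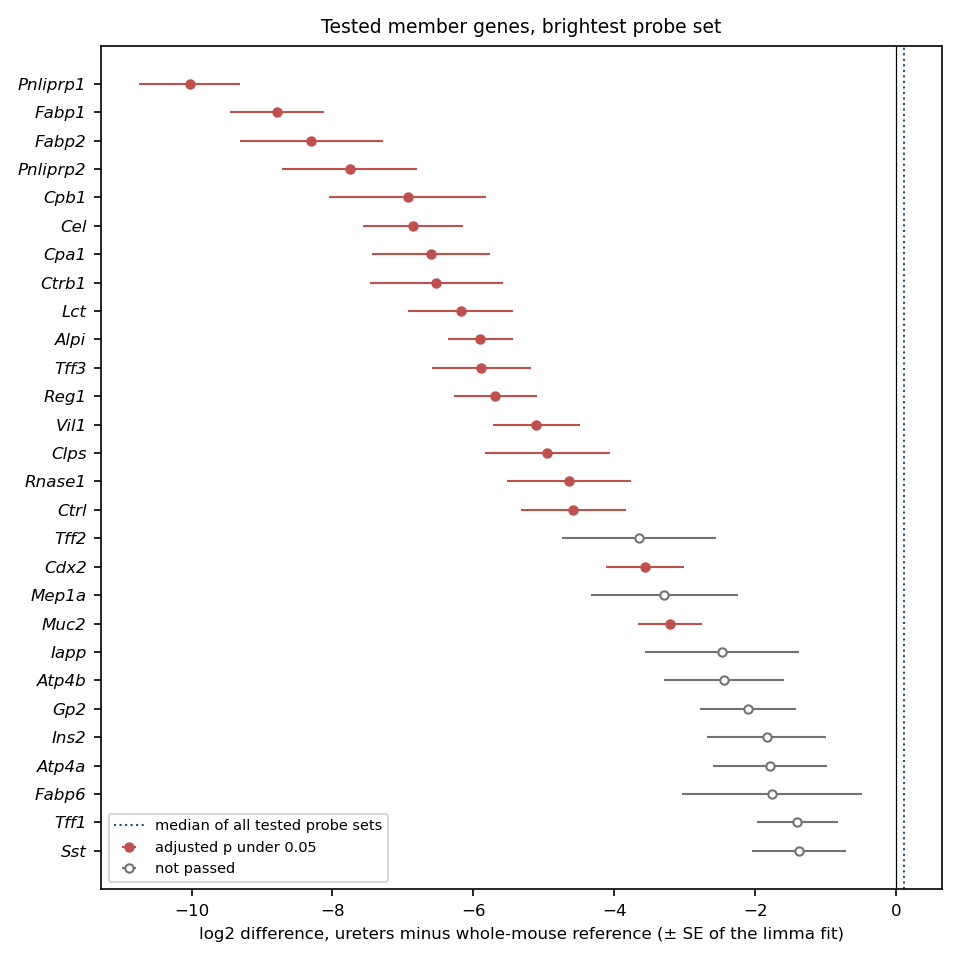
Log2 difference, ureters minus whole-mouse reference, with the SE of the limma fit, for the 28 tested member genes; filled red points passed the adjusted p of 0.05 and open grey points did not. All 28 lie left of 0, from -10.03 for Pnliprp1 to -1.38 for Sst; for genes under background in the ureters the plotted fit depends on those dim values.

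Islet genes were near or under background in the ureters. In the reference, Gcg, Iapp, Ins2 and Sst were above its background of 127, and Pdx1 and Ppy were under it. Of the 6 genes 0 passed (limma, 3 tested, 0 at an unadjusted p under 0.05). The regulator Pdx1, which specifies the pancreas and maintains beta cells, had 11.7, 16.1 and 12.1 in the ureters against 119 in the reference, all under background. Gcg, the glucagon gene, had 8.77, 12.3 and 23.2 in the ureters against 350.4 in the reference, at least 2.48-fold lower. It was tested only without the dim filter (adjusted p = 0.0575). For Sst, which encodes somatostatin, the values were 98.8, 186 and 214 in the ureters against 433 in the reference (-1.38 ± 0.67, adjusted p = 0.273). Somatostatin is also made in the stomach, the gut and neurons.

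Ins2, an insulin gene, had 88.1, 54.8 and 186 in the ureters against 381 in the reference (-1.84 ± 0.84, adjusted p = 0.250). Its probe set carries the array maker's mark for probes that may bind related transcripts, so Ins1 could share its signal. The same mark is on the probe sets read for Upk1b, Gkn1, Ang4, Lyz1, Klk1, Prss2, Cela3b, Apoa1, Apoa4 and Sox17. Iapp, which encodes the amyloid peptide co-secreted with insulin, had 4 probe sets, all under background in every ureter. The brightest had 14.8, 83.7 and 96.6 in the ureters against 351 in the reference, at least 2.49-fold lower by its bound, and did not pass (adjusted p = 0.234). Ppy, the pancreatic polypeptide gene, had 15.2, 18.1 and 15.9 in the ureters against 9.22 in the reference, all under background. For Pdx1, Ppy and the other genes under background in both groups no fold is given.

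Both intestinal carriers of fatty acids were lower in the ureters, and the bile acid carrier did not pass. Fabp1, the fatty acid-binding protein of liver and small intestine, had 55.2, 185 and 116 in the ureters against 52771 in the reference, at least 362-fold lower (adjusted p = 0.00542). Its second probe set had 4.78, 12.7 and 64.8 in the ureters against 10520 in the reference, at least 72.2-fold lower (adjusted p = 0.0138). Every Fabp1 value in a ureter was under background. Because Fabp1 is a liver gene as well, 11 liver markers are given beside it. Their summed intensities were 4115, 10334 and 9430 in ureter replicates 1, 2 and 3 against 452592 in the reference. Of the 11, 6, 5 and 8 were above background in the 3 ureters, and 9 were called lower, against 4.77% of all tested genes. The part of liver RNA in the reference level of Fabp1 was not tested.

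Fabp2, the intestinal fatty acid-binding protein of enterocytes, had 76.3, 24.5 and 237 in the ureters against 29342 in the reference (-8.30 ± 1.02, adjusted p = 0.0141). Only ureter replicate 3 was above background. Fabp6, the bile acid carrier of the ileum, had 131, 14.4 and 208 in the ureters against 308 in the reference (-1.77 ± 1.28, adjusted p = 0.459). Its ureter replicates 1 and 3 were above background and replicate 2 was far below it.

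Brush border genes were lower in 3 of 4 cases. Lct, the lactase of suckling animals, had 491, 167 and 134 in the ureters against 17127 in the reference (-6.18 ± 0.75, adjusted p = 0.0138), with ureter replicate 1 well above background and replicate 2 under it. Alpi, intestinal alkaline phosphatase, had 121, 123 and 145 in the ureters against 8436 in the reference (-5.90 ± 0.46, adjusted p = 0.00575). Vil1 encodes villin, which bundles actin in microvilli of gut and kidney tubule, and had 81.0, 174 and 186 in the ureters against 5180 in the reference (-5.11 ± 0.61, adjusted p = 0.0137). For Alpi and Vil1 the ureters stood close to background, 2 of them above it for Alpi and 1 for Vil1.

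Mep1a, the meprin alpha protease of intestinal and renal brush borders, was the exception in this group. It was detected in every ureter, with 177, 1445 and 514 in ureter replicates 1, 2 and 3 against 5140 in the reference, and did not pass (-3.29 ± 1.04, adjusted p = 0.127). Without ureter replicate 2 it passed as lower (-4.03, adjusted p = 0.0333). A second probe set had 4.70, 440 and 316 in the ureters against 415 in the reference, so there replicate 2 lay above the reference. At both probe sets replicate 1 was the lowest ureter and replicate 2 the highest.

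Nephron genes are given beside Mep1a, since kidney adjoins the dissected tissue. Of 11 measured proximal tubule markers, 8, 9 and 9 were above background in ureter replicates 1, 2 and 3 and 11 in the reference, and their sums were 4736, 14406 and 9358 in the ureters against 64817 in the reference. Slc27a2, a fatty acid transporter that liver also expresses, made up 48307 of the reference sum and was the one gene of the 11 called (-4.75 ± 0.90, adjusted p = 0.0375). Without it the sums were 3953, 9728 and 7824 in the ureters against 16511 in the reference. Hnf4a, also listed below among gut endoderm transcription factors, made up 7771 of that reference sum. Its ureter values were 38.4, 1598 and 827. Replicate 1 was the lowest ureter for 8 of the 11 and replicate 2 the highest for 7, whereas over all probe sets these shares were 32.5% and 32.4%. Replicate 1 was also the lowest ureter for 8 of 11 liver genes and 6 of 8 smooth muscle genes. Lrp2, the endocytic receptor megalin, had 153, 2218 and 1032 in the ureters against 1181 in the reference. Slc12a1, the salt transporter of the loop of Henle, had 50.2, 4205 and 711 in the ureters against 828 in the reference. Mep1a, Lrp2 and Slc12a1 were each lowest in replicate 1 and highest in replicate 2, an order found at 18.5% of all probe sets. Slc34a1, a phosphate transporter of the proximal tubule, had 88.0, 732 and 1182 in the ureters against 644 in the reference, highest in replicate 3. Among 10 distal nephron and collecting duct genes, some of which urothelium also expresses, sums were 20648, 30730 and 29251 in the ureters against 10385 in the reference, and 8, 9 and 10 were above background in the 3 ureters. The part of kidney RNA in the Mep1a signal was not tested.

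**Figure D3:**
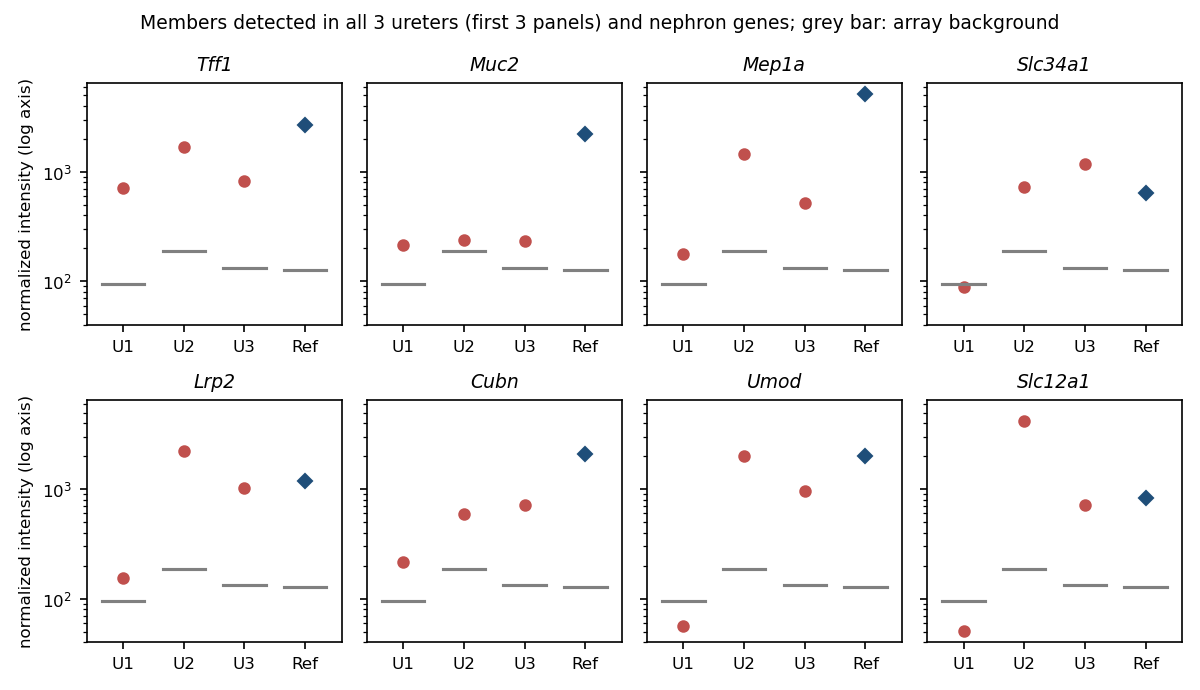
Normalized intensity (log axis) on the 4 arrays (U1 to U3, ureters; Ref, whole-mouse reference) for the 3 members above background in all ureters, Tff1, Muc2 and Mep1a, and for 5 nephron genes, Slc34a1, Lrp2, Cubn, Umod and Slc12a1; the grey bar is each array's background. Mep1a and the nephron genes are lowest in U1, whereas normalized Muc2 is nearly level across the ureters, at 213 to 236. The deposited Muc2 values were 139, 262 and 187 in U1, U2 and U3, so there U1 was lowest too.

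The intestinal transcription factor Cdx2 was lower in the ureters. Its brighter probe set had 104, 114 and 125 in the ureters against 1482 in the reference (-3.57 ± 0.55, adjusted p = 0.0229), with 1 ureter just above background. The adjusted p was 0.0502 without the dim filter. A dimmer probe set of Cdx2 was under background on all 4 arrays. Cdx1 was also under background throughout, with 7.10, 9.86 and 6.20 in the ureters against 16.8 in the reference, so no fold can be given for it.

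Trefoil factors are small, disulfide-rich peptides secreted with mucus, and their 3 genes stand side by side on chromosome 17 in the RefSeq gene order. Tff1, the gastric form, was detected in every ureter. It had 706, 1698 and 823 in the ureters against 2654 in the reference. The ureters lay below the reference without overlap, an order found at 26.5% of all probe sets. The log2 difference of -1.40 ± 0.58 did not pass (adjusted p = 0.207). Tff2, the form of gastric gland mucus, had 12.8, 101 and 37.0 in the ureters against 637 in the reference, under background in every ureter (at least 4.45-fold lower, adjusted p = 0.111, not passed). Tff3, the intestinal goblet cell form, had 58.9, 28.4 and 61.9 in the ureters against 3526 in the reference and was at least 24.2-fold lower (adjusted p = 0.0137). So the 3 neighbouring genes were not alike: Tff1 was detected in each ureter, whereas Tff2 and Tff3 were detected in none.

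Muc2, the gel-forming mucin of goblet cells, had 213, 236 and 234 in the ureters against 2196 in the reference. All 3 ureters were above background, replicate 2 by little (236 against 188). After quantile normalization they were close to one another (SD 0.08 on the log2 scale). The deposited Muc2 values were 139, 262 and 187 in ureter replicates 1, 2 and 3, in the order of the array medians of 154, 259 and 187. The log2 difference was -3.20 ± 0.45 (adjusted p = 0.0186).

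Stomach genes had low signals in the ureters. In the reference, Atp4a, Atp4b and Gkn1 were above its background of 127. Of the 5 genes 0 passed (limma, 2 tested, 1 at an unadjusted p under 0.05). Atp4a and Atp4b encode the subunits of the gastric proton pump. Atp4a had 76.7, 253 and 101 in the ureters against 469 in the reference (-1.79 ± 0.81, adjusted p = 0.244), and Atp4b had 61.5, 45.1 and 140 in the ureters against 455 in the reference (-2.44 ± 0.85, adjusted p = 0.153). Different ureters were above background for the 2 subunits, replicate 2 for Atp4a and replicate 3 for Atp4b. Gkn1, a gastric mucosal protein, had 55.5, 69.3 and 23.7 in the ureters against 231 in the reference, at least 1.67-fold lower, and was not tested. Gast, the gastrin gene, with 57.9, 13.2 and 18.8 in the ureters against 25.7 in the reference, was under background everywhere, as was the pepsinogen gene Pgc, with 7.60, 13.4 and 10.5 in the ureters against 21.8 in the reference.

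Among the ureters the 45 member probe sets had a median SD of 0.67, beside 0.46 over all probe sets (log2 scale, n = 3 ureters). The highest ureter differed from gene to gene. Replicate 1 was the highest ureter for Lct, replicate 2 for Mep1a and Tff1, and replicate 3 for Fabp2. Of the 8 genes with more than 1 probe set, Fabp1, Clps and Pnliprp2 had both called lower, and 0 had a probe set called higher.

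The sequences before the gene starts are shown for 3 pancreatic and 3 intestinal genes that were called lower, to show what such matches look like. They were picked because they hold a match: Cel, Cpa1 and Ctrb1 are the 3 pancreatic enzyme genes with the RBPJ site, and Fabp1, Fabp2 and Alpi are the called genes of the carrier and brush border groups with the CDX-type motif. The windows run from 250 bases before to 50 bases after the start in RefSeq (GRCm38.p6), and 28 of the 35 genes had one. Capitals mark matches, on either strand, to CACCTG, the E-box of the PTF1 site, to TTTCCCA, its RBPJ site, or to TTTATNG, a CDX-type motif. The last can overlap a TATA box. Cel lies at chr2:28563354-28563653 (minus strand), Cpa1 at chr6:30638968-30639267 (plus), Ctrb1 at chr8:111690961-111691260 (minus), Fabp1 at chr6:71199629-71199928 (plus), Fabp2 at chr3:122894822-122895121 (plus) and Alpi at chr1:87101557-87101856 (minus).
Cel: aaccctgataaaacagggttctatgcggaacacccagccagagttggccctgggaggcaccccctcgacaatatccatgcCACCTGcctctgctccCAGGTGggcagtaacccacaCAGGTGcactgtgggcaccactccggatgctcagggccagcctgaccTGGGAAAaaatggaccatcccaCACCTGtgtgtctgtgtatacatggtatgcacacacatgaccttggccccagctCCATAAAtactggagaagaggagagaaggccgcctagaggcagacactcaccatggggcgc
Cpa1: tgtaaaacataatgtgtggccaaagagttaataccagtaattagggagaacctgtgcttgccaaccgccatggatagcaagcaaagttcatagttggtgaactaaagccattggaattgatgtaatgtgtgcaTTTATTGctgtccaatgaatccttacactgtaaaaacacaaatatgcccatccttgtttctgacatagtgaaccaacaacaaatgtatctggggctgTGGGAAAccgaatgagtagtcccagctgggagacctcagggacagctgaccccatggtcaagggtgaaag
Ctrb1: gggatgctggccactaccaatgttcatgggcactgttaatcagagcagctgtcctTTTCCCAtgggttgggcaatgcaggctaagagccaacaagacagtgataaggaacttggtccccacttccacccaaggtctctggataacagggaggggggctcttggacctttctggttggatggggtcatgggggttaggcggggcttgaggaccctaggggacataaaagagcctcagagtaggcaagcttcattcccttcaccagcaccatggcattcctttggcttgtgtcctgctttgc
Fabp1: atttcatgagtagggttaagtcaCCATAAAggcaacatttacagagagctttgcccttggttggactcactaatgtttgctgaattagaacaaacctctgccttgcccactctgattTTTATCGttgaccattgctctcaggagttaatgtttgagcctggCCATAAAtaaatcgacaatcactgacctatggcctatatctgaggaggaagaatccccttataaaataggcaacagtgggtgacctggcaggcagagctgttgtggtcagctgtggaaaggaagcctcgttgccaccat
Fabp2: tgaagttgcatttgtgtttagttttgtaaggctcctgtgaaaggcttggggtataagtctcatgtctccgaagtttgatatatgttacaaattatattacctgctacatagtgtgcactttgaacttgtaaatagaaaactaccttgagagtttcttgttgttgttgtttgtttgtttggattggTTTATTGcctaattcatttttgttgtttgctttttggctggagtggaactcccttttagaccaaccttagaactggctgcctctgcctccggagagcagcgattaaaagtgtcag
Alpi: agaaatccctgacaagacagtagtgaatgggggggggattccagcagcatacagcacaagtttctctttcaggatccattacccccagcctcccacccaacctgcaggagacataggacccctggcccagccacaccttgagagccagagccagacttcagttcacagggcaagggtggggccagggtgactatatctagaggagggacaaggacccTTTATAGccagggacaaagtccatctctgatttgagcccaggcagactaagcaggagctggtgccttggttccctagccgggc

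The E-box was found in 20.2% of all 32851 promoter windows, in 10 of 28 member windows and in 4 of 9 of the pancreatic enzyme genes. The RBPJ site was found in 8.06% of all windows, in 4 of 28 members and in 3 of 9 pancreatic enzyme genes, namely Cel, Cpa1 and Ctrb1. The CDX-type motif was found in 10.9% of all windows, in 10 of 28 members, in 4 of 9 pancreatic enzyme genes and in 4 of 7 genes of the intestinal carrier and brush border groups. Fabp1 holds 3 such matches, the nearest beginning 89 bases before its start, and Fabp2 holds 1, beginning 65 bases before its start. Cel holds 4 E-boxes and 1 RBPJ site. These are matches of letters, and binding was not measured.

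Other genes of the same organs, in 7 further lists, gave 27 lower and 4 higher among 141 measured genes, of which 95 were tested. Across the arrays 4.77% of tested genes were called lower and 2.94% higher. Without ureter replicate 3 the calls in the 7 lists were 13 lower and 0 higher. Of 23 acinar genes 12 were tested, 6 were lower and 0 higher. The lower ones included the elastase genes Cela3b (-8.04 ± 0.88, adjusted p = 0.0107) and Cela2a (at least 50.8-fold) and the trypsinogen gene Prss2 (-6.57 ± 0.72). Cela1, another elastase gene, which is expressed outside the pancreas too, was above background in all ureters (5260, 2154 and 3107 against 11004 in the reference) and did not pass (adjusted p = 0.109). Klk1, a tissue kallikrein, had 1020, 996 and 1075 in the ureters against 1142 in the reference (-0.15).

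Of 35 enterocyte genes 27 were tested, 12 were lower and 0 higher (19 and 1 at an unadjusted p under 0.05). All 3 ureters lay below the reference for 23 of the 35 and above it for 5, beside 26.5% and 36.3% of all probe sets. Among these 5 was Krt20, with 5823, 2160 and 2988 in the ureters against 555 in the reference (2.57, not passed). The apolipoprotein genes Apoa1, Apoa4 and Apob, which liver shares with the gut, were at least 396-fold, 287-fold and 36.8-fold lower. Enpep, a peptidase of gut, kidney and vessel cells, was as bright in the ureters as in the reference, with 21730, 33080 and 31814 against 24299 (0.22), and Plb1 differed by 0.16. Among 17 goblet and Paneth cell genes 11 were tested, 2 were lower and 0 higher. Clca1 was at least 29.5-fold lower, with the call lost at an offset of 1 (adjusted p = 0.0577). The other was the lysozyme gene Lyz1 (-1.31 ± 0.27, adjusted p = 0.0481), which macrophages can express. Lyz1 lost its call with median-centred arrays (adjusted p = 0.444) and under several other settings. Ang4 (-0.30) and Atoh1 (-0.32) did not pass.

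Of 19 further stomach genes 15 were tested, 4 were lower and 0 higher (7 and 1 at an unadjusted p under 0.05). All 3 ureters lay below the reference for 13 of the 19 and above it for 1, Ctse. Over all probe sets these orders were found at 26.5% and 36.3%. Ctse had 12873, 7090 and 12484 in the ureters against 4795 in the reference (1.12, not passed). Pga5, a pepsinogen, had 138, 155 and 139 in the ureters against 27077 in the reference (-7.44 ± 0.42, adjusted p = 0.00503). Lipf, gastric lipase, was at least 13.4-fold and Bpifb1 at least 12.4-fold lower. Car2, a carbonic anhydrase gene of many tissues, was chosen after its value was seen (-3.30 ± 0.60, adjusted p = 0.0326). Omitting ureter replicate 3 ended the calls of Lipf (adjusted p = 0.0746), Bpifb1 (adjusted p = 0.0772) and Car2 (adjusted p = 0.112), and those of Bpifb1 and Car2 were lost under several other settings too. Vsig1 (-0.50) and Barx1 (0.19) did not pass. Of 20 islet genes 0 were called by limma (11 tested, 6 lower at an unadjusted p under 0.05), with Pax6 (-0.23) and Scgn (0.20) nearest to 0 among the 11 tested. Of 10 gut hormone genes 6 were tested, 1 was lower and 0 higher. The lower gene was Tac1, the substance P precursor that neurons express (-5.39 ± 0.92, adjusted p = 0.0290). Its adjusted p was 0.0862 without ureter replicate 3 and 0.0524 without the dim filter. Cck (-1.10) and Nts (-1.18) did not pass. All 3 ureters lay below the reference for 5 of the 10 gut hormone genes and above it for 2, both read beside the shares just given. Those 2, Sct and Ghrl, were left out of the test by the dim filter. Sct had 374, 337 and 323 in the ureters against 33.7 in the reference, above background in every ureter. Ghrl had 163, 172 and 232 in the ureters against 41.3 in the reference. Among 7 neuronal markers measured beside Tac1, Tubb3, Nefl and Stmn2 were lower. The sums were 4140, 5317 and 4757 in the ureters against 23207 in the reference. The other 4 did not pass, among them Uchl1, with 1517, 1130 and 1350 in the ureters against 871 in the reference (0.60), and Ret, with 479, 1912 and 971 in the ureters against 1067 in the reference (-0.15).

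The list of gut endoderm transcription factors, which many epithelia use, was the only one of the 7 with genes called higher. Of its 17 measured genes 13 were tested, 4 were higher and 2 lower. Foxa1, a forkhead factor, had 26738, 13425 and 17857 in the ureters against 1548 in the reference (3.57 ± 0.40, adjusted p = 0.0122). Gata5 had 961, 616 and 954 in the ureters against 155 in the reference (2.32 ± 0.48, adjusted p = 0.0474), and Gata6 had 4782, 4690 and 4014 in the ureters against 1183 in the reference (1.91 ± 0.33, adjusted p = 0.0297). Sox17, chosen after its value was seen, was the fourth (1.40 ± 0.28, adjusted p = 0.0411). Omitting ureter replicate 3 ended all 4 higher calls, with adjusted p = 0.0558 for Foxa1, 0.188 for Gata5, 0.127 for Gata6 and 0.192 for Sox17. Gata5 also lost its call with the values as deposited (adjusted p = 0.114), without the dim filter (0.0864), without a trend (0.0686) and without ureter replicate 1 (0.0794). Gata6 lost its call with median-centred arrays (adjusted p = 0.0504) and without a trend (0.0664). Sox17 lost its call with median-centred arrays (adjusted p = 0.0636), without the dim filter (0.0549), without a trend (0.109) and without ureter replicate 1 (0.0582). The lower pair were Foxa3 (at least 15.9-fold), a forkhead factor of liver and gut, and Prox1 (-3.06 ± 0.60, adjusted p = 0.0399). Their adjusted p was 0.0544 and 0.141 when ureter replicate 3 was omitted. Prox1 also lost its call with the values as deposited (adjusted p = 0.0689), without the dim filter (0.0764) and without a trend (0.0705). Gata4 (-0.17) and Elf3 (-0.09) did not pass.

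**Figure D4:**
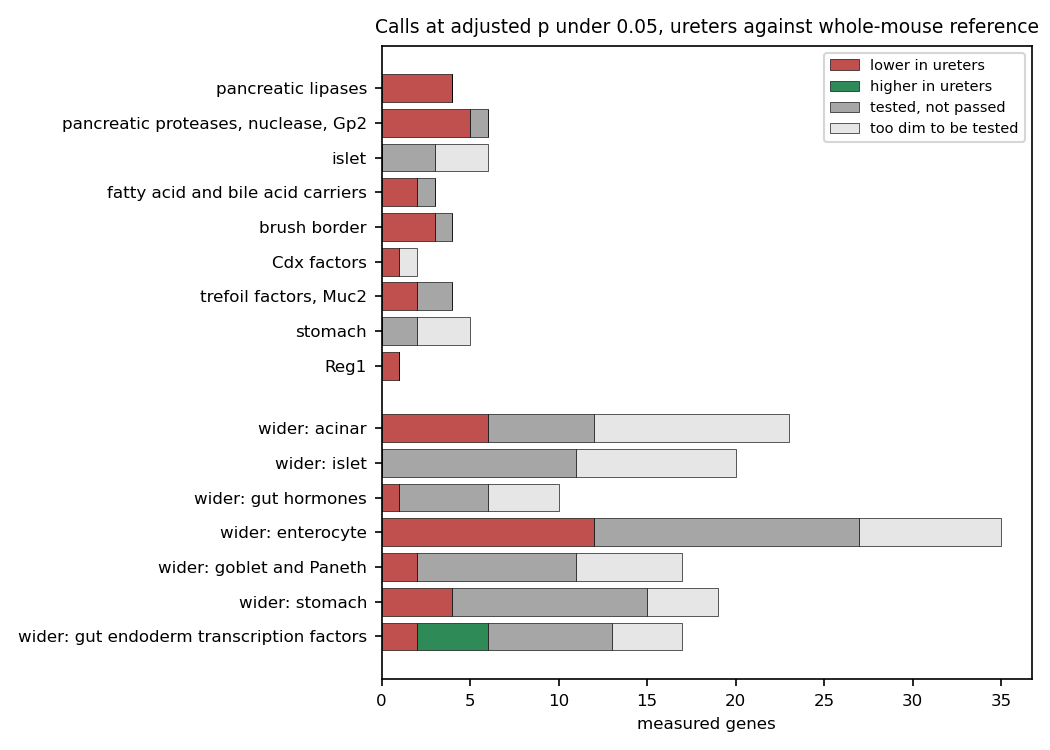
Number of measured genes that were lower, higher, tested without passing or too dim to be tested (limma adjusted p of 0.05, ureters against whole-mouse reference), for the member genes by role (upper bars) and for the 7 wider lists (lower bars). Lower calls fill the lipase bar (4 of 4) and are absent from both islet bars; higher calls appear in the transcription factor list (4 of 17).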

How the data were processed

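Ureters at postnatal day 1 (3 arrays) and whole newborn mice (1 array) were measured on Affymetrix MOE430 arrays. The deposited values are linear intensities, 1 per probe set and array; the submitters' processing notes name GCOS, and the authors had scaled each array to a trimmed mean of 1500 (2% taken off either end of the distribution). How background was handled is not stated in these sources.

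Because the arrays' median log2 values spanned 1.05, intensities were quantile normalized and taken as log2(intensity + 12.23), the 10th percentile of all values. After 64 controls, the dimmest 40% of probe sets were left out, which left 27022. The comparison of ureters with the reference used limma 3.58.1 in R 4.3.3 (lmFit, eBayes with an intensity trend, two-sided, Benjamini-Hochberg over all probe sets, threshold 0.05, 2 residual degrees of freedom). The procedure was also run on simulated data. There the reference varied like the ureters by construction, and changes were set only in probe sets brighter than most in the ureters. The simulation could therefore test neither that assumption nor calls of genes under background in the ureters. A gene was read at its brightest probe set. Gene symbols came from the platform's annotation (34945 with 1 symbol, 932 with several, 9160 with none); all 35 measured members were found in the RefSeq table, which changed 0 symbols.

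All member genes with a probe set could be named. From each wider list the rule took up to 3 called genes per direction with the greatest change and 2 uncalled genes with the least; other names were chosen after their values were seen. Members, lists, tests and printed promoters were chosen with earlier results of these data known. Alternatives covered scaling, offset, filter, variance trend, probe set averaging and each ureter left out.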

Additional observations from a re-analysis of the deposited data

How the results depend on the processing

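No member gene tested under any alternative changed direction. All 18 member genes called lower were still called with the scaling as deposited, with median-centred arrays, with an offset of 50 and without ureter replicate 1 or 2; 16 were with an offset of 1, 15 without the dim filter and 15 without an intensity trend. Over the fits without 1 ureter each, calls ranged over 12 to 19 member genes, 14 to 22 member probe sets, 13 to 38 genes of the wider lists and 317 to 2090 of all probe sets. Over all probe sets 1667 were called, against 1075 without the dim filter and 904 without a trend, and 444 higher and 882 lower as deposited, against 725 and 942. With the dimmest 60% left out, 16 of 18 tested member genes were lower. Averaging all tested probe sets of a gene left 18 member genes called. The median of all tested probe sets was -0.13 as deposited and 0.60 with median-centred arrays. No paired analysis was possible because the reference was a single array from a pool of whole mice. Signal over background limits most ureter values to bounds.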
